A study of Zea mays with 68 samples.

Results

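Female spikelets, which bear the flowers of the maize ear, were taken at maturity and set against the vegetative meristem, which had been collected together with surrounding tissue. Both organs came from the inbred line B73, with no treatment or transgene in the labels, and polyadenylated RNA was sequenced from strand-specific libraries. There were 3 spikelet libraries and 2 meristem libraries, 5 of the 68 samples of the series. The gene table holds 109715 rows, of which 28427 had at least 1 FPKM in at least 2 of the 5 libraries and were tested. FPKM are fragments per kilobase of gene, normalized to the mapped fragments of a library, so levels can be compared between genes, and all values below were scaled between libraries by median-of-ratios factors. Nothing in the labels says that libraries of an organ came from separate plants, and p-values therefore measure only the spread between these libraries. The age of the plants, the dissection and the number of organs in a sample are not given in the labels.

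The vegetative shoot apical meristem is the pool of dividing cells that gives off leaf primordia, and young leaf bases and unelongated stem lie around it. A female spikelet is a later, determinate structure, in which bracts called glumes enclose the florets, and the ovary of the fertile floret carries the silk that receives pollen. Regulators of leaf initiation and cell proliferation, such as growth-regulating factors and auxin export carriers, are studied in the first organ. MADS-box factors set floral organ identity in the second.

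The labels were checked against marker genes. Summed over 24 floral-organ genes, the level was 2664, 2722 and 2325 FPKM in spikelets, against 717.8 and 642.3 FPKM in meristem, and 18 of the 22 tested rose in spikelets, while the other 4, m19, m20, m21 and m26, fell. Shoot meristem genes, among them the homeobox gene KN-1, summed to 94.9, 172 and 139 FPKM in spikelets, against 257 and 241 FPKM in meristem. Of the 7 tested, 3 fell and 0 rose. KN-1 fell, with a log2 difference of -1.20 (adjusted p = 0.0389). Its call ended in several settings, among them no filter, the replicate block, and the absence of spikelet library 1 or 3. Leaf mesophyll and bundle sheath genes summed to 384, 395 and 311 FPKM in spikelets, against 122 and 113 FPKM in meristem. Pollen genes summed to 107, 73.4 and 19.6 FPKM in spikelets, against 9.04 and 6.81 FPKM in meristem, so spikelet library 3 was nearest to the meristem. Of 40 endosperm genes, 34 were listed at 0 in all 5 libraries. The class still summed to 148, 138 and 176 FPKM in spikelets, against 60.2 and 69.9 FPKM in meristem. Of its 4 tested genes 2 rose and 1 fell. Spikelet library 3 was also the nearest spikelet library to the meristem for 52.2% of the genes that rose and 54.8% of the genes that fell. Across genes, its Pearson correlation with the other spikelet libraries was 0.930 and 0.942, against 0.957 between spikelet libraries 1 and 2. What sets library 3 apart was not tested. In whole organs, fewer cells of a type and less RNA per cell cannot be told apart.

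Changed genes were those with an adjusted p under 0.05 and a difference of at least 1 on the log2(FPKM + 1) scale, by limma with Benjamini-Hochberg adjustment over all tested genes. This scale understates the change of genes with low values. The libraries of the organs did not overlap for 68.4% of tested genes. In spikelets 4658 genes rose, 16.4% of those tested, and 5466 fell, 19.2%. Counts in the gene lists below are to be read against these shares. The median difference over all tested genes was -0.04 after median-of-ratios scaling and -0.37 on the deposited values. On the deposited values 3231 genes rose and 7719 fell, so that 29.5% of the calls were increases, against 46.0% after scaling. The 2 directions were spread differently over expression levels. Among 8050 genes whose higher organ mean was under 5 FPKM, 11.7% rose and 18.2% fell. Among 403 genes at 500 FPKM or more, 34.0% rose and 5.96% fell. The meristem libraries each had more genes at 1 FPKM or above, 26506 and 26664, against 24939, 24322 and 25123 in spikelets. With meristem library 1 or 2 left out, 4624 or 4714 genes changed in all, against 10124, and the remaining meristem library was then assumed to vary like the spikelets.

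Among genes with a symbol in the reference, and outside the MADS-box family, the largest increase in spikelets was in chiB (GRMZM2G005633), which encodes a chitinase, an enzyme that cuts the chitin of fungal walls. It had 820.4, 782 and 552 FPKM in spikelets, against 0 and 0.303 FPKM in meristem, a log2 difference of 9.28 ± 0.25 (SE, adjusted p = 2.7e-05). The gene was close to silent in the meristem and stood among the well expressed genes of every spikelet library. The ABA-, stress- and ripening-induced gene aba1 (GRMZM2G136910) had 496, 339 and 209 FPKM in spikelets, against 0.189 and 1.01 FPKM in meristem, a log2 difference of 7.73 ± 0.41 (SE, adjusted p = 0.000206). ZCN14 (GRMZM2G373928), a relative of the flowering signal FT, had 141, 167 and 83.3 FPKM in spikelets, against 0 and 0 FPKM in meristem. Its meristem libraries are listed at 0, so no fold is given. Kiwellin-1 (GRMZM2G073114), of a secreted protein family with a member that binds an effector of the corn smut fungus, had 191, 212 and 119.5 FPKM in spikelets, against 1.11 and 0.694 FPKM in meristem, a log2 difference of 6.49 ± 0.29 (SE, adjusted p = 0.00014). AGA1 (GRMZM2G340656), an alkaline alpha-galactosidase that frees galactose from raffinose sugars, had 439.6, 271 and 223 FPKM in spikelets, against 3.3 and 1.69 FPKM in meristem, a log2 difference of 6.46 ± 0.35 (SE, adjusted p = 0.000224). In both genes the lowest spikelet library was many times above the higher meristem library. The phospholipid transfer protein gene plt2 (GRMZM2G010868) had 788, 336 and 245 FPKM in spikelets, against 4.76 and 3.34 FPKM in meristem, a log2 difference of 6.33 ± 0.49 (SE, adjusted p = 0.00054). The beta-glucosidase gene glu1 (GRMZM2G016890), whose product releases the toxic aglycones of stored benzoxazinoids, had 1195, 829 and 1681 FPKM in spikelets, against 39.1 and 8.94 FPKM in meristem, a log2 difference of 5.89 ± 0.61 (SE, adjusted p = 0.00103). By ratio, its meristem libraries differed from each other more than its spikelet libraries did. plr354a, the tonoplast aquaporin TIP4-4 and the thaumatin-like PR-5 completed the 10 largest increases, with log2 differences of 6.05, 5.85 and 5.39.

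The largest decrease among the same genes was in ZCN3 (GRMZM2G338454), of the TFL1-like group of flowering antagonists, with 2.67, 0.975 and 0.659 FPKM in spikelets, against 101 and 178 FPKM in meristem, a log2 difference of -5.88 ± 0.42 (SE, adjusted p = 0.000467). The basic helix-loop-helix gene bHLH114 (GRMZM2G095899) had 0.313, 0 and 0.0821 FPKM in spikelets, against 40.5 and 43.8 FPKM in meristem, a log2 difference of -5.26 ± 0.24 (SE, adjusted p = 0.00014). The nitrate reductase gene NAR (GRMZM5G878558), for the first step of nitrate assimilation, had 0.245, 0.195 and 0.572 FPKM in spikelets, against 32.2 and 44.3 FPKM in meristem, a log2 difference of -4.87 ± 0.27 (SE, adjusted p = 0.000224). Apart from ZCN3 in spikelet library 1, these 3 genes were under 1 FPKM in every spikelet library. bx1 (GRMZM2G085381), for the first committed step of benzoxazinoid synthesis, had 5.42, 0.63 and 1.12 FPKM in spikelets, against 94.2 and 65.1 FPKM in meristem, a log2 difference of -4.82 ± 0.59 (SE, adjusted p = 0.0017). Spikelet library 1 was the highest of the 3 for this gene and still far under the meristem. The growth-regulating factor gene GRF12 (GRMZM2G119359) had 5.68, 3.58 and 4.8 FPKM in spikelets, against 139 and 138 FPKM in meristem, a log2 difference of -4.64 ± 0.23 (SE, adjusted p = 0.000173). PIN1d (GRMZM2G171702), an auxin export carrier, had 1.24, 3.56 and 2.81 FPKM in spikelets, against 70 and 84.5 FPKM in meristem, a log2 difference of -4.52 ± 0.34 (SE, adjusted p = 0.000535). In both genes the lower meristem library was more than 10 times the highest spikelet library. DLF1 (GRMZM2G067921), a bZIP factor that acts with FT-like proteins in the floral transition, had 0.394, 0.0988 and 0.199 FPKM in spikelets, against 23.9 and 29.8 FPKM in meristem, a log2 difference of -4.50 ± 0.24 (SE, adjusted p = 0.000219). The AP2-type gene EREB161, the WRKY gene GRMZM2G125653 and the NF-Y subunit gene GRMZM5G853836 made up the rest of the 10, with log2 differences of -4.85, -4.10 and -3.94.

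**Figure D1:**
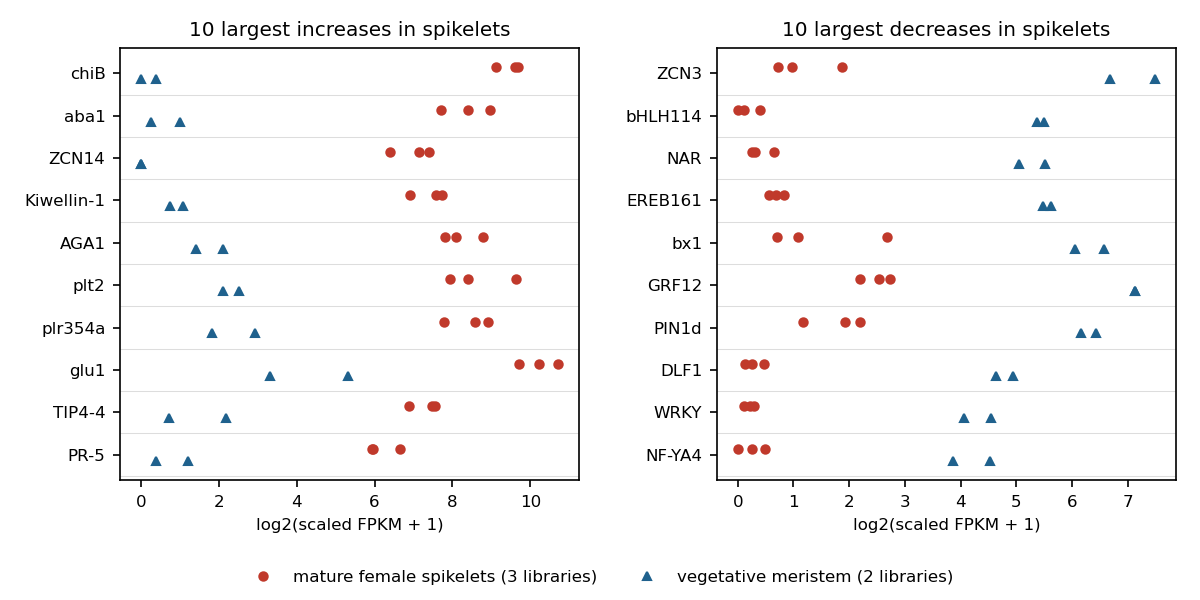
Levels of the 10 largest increases (left) and 10 largest decreases (right) in mature female spikelets outside the MADS-box family, as log2(scaled FPKM + 1) on the horizontal axis. Circles are the 3 spikelet libraries and triangles the 2 meristem libraries, and the organs do not overlap for any gene shown, as the choice of genes required.

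The spikelet transcriptome was concentrated in fewer genes. The 10 leading genes held 12.1%, 11.8% and 7.13% of the summed FPKM in spikelets, against 4.57% and 4.56% in meristem. The number of genes that held 50% of the sum was 550, 514 and 785 in spikelets, against 870 and 954 in meristem. Library 3 again lay between the other spikelet libraries and the meristem. The leading gene of the spikelets, GRMZM5G846674, which has no symbol in the reference, had 71560, 67150 and 25250 FPKM in spikelets, against 3829 and 4064 FPKM in meristem, a log2 difference of 3.65 ± 0.67 (SE, adjusted p = 0.00653). The next, GRMZM5G836166, had 19020, 18260 and 10000 FPKM in spikelets, against 4516 and 4908 FPKM in meristem, a log2 difference of 1.69 ± 0.50 (SE, adjusted p = 0.0348). Both also stood among the 10 leading genes of the meristem, so these genes were abundant in both organs and higher in spikelets. GRMZM2G161154 had 8250, 11060 and 5797 FPKM in spikelets, against 1333 and 1092 FPKM in meristem, a log2 difference of 2.74 ± 0.41 (SE, adjusted p = 0.00336). The glycine-rich protein gene grp1 (GRMZM2G080603) had 9886, 9477 and 4552 FPKM in spikelets, against 1878 and 2029 FPKM in meristem, a log2 difference of 1.95 ± 0.47 (SE, adjusted p = 0.0173). The lipid transfer protein gene LTP3 (GRMZM2G126397), of a family that carries cuticle lipids, had 4229, 4898 and 4326 FPKM in spikelets, against 1196 and 1039 FPKM in meristem, a log2 difference of 2.00 ± 0.31 (SE, adjusted p = 0.00362). All 5 rose, and spikelet library 3 was the lowest of the spikelets for all but LTP3. GRMZM5G846674, GRMZM5G836166, GRMZM2G161154, grp1 and LTP3 each lost its call when at least 1 of meristem library 1, meristem library 2 and spikelet library 1 was left out (adjusted p 0.0813 to 0.367). Calls also ended with no filter for GRMZM5G846674, GRMZM5G836166 and grp1 (adjusted p 0.0746 to 0.195).

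Of the 10 leading genes of each organ, 5 were shared, and the count was 60 of the 100 leading and 703 of the 1000 leading genes. The leading gene of the meristem, GRMZM2G588961, had 7589, 11620 and 4385 FPKM in spikelets, against 8495 and 4359 FPKM in meristem and did not pass (log2 difference 0.26, adjusted p = 0.742). RAB15 (GRMZM2G165901) had 9931, 6567 and 2614 FPKM in spikelets, against 2767 and 4265 FPKM in meristem, with a log2 difference of 0.69 (adjusted p = 0.406). The libraries of the 2 organs overlapped for both. A gene with a steeper contrast, AC187262.4_FG007, stood 13th among the spikelet genes and 1769th among the meristem genes. It had 6080, 3447 and 3047 FPKM in spikelets, against 75.5 and 89 FPKM in meristem, a log2 difference of 5.59 ± 0.36 (SE, adjusted p = 0.000358). In the other direction, GRMZM2G504943 had 0, 0 and 851 FPKM in spikelets, against 4854 and 3707 FPKM in meristem, a log2 difference of -8.81 ± 2.89 (SE, adjusted p = 0.047). Only 1 of its spikelet libraries had any value. GRMZM2G005721 had 174, 2688 and 2683 FPKM in spikelets, against 2956 and 4726 FPKM in meristem and did not pass (log2 difference -1.79, adjusted p = 0.265). The call of GRMZM2G504943 ended with meristem library 1, meristem library 2, spikelet library 1 or spikelet library 2 left out (adjusted p 0.0963 to 0.261). Calls also ended with a pseudocount of 0.1 for GRMZM2G504943 (adjusted p = 0.0685) and with no filter for GRMZM2G504943 (adjusted p = 0.102).

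**Figure D2:**
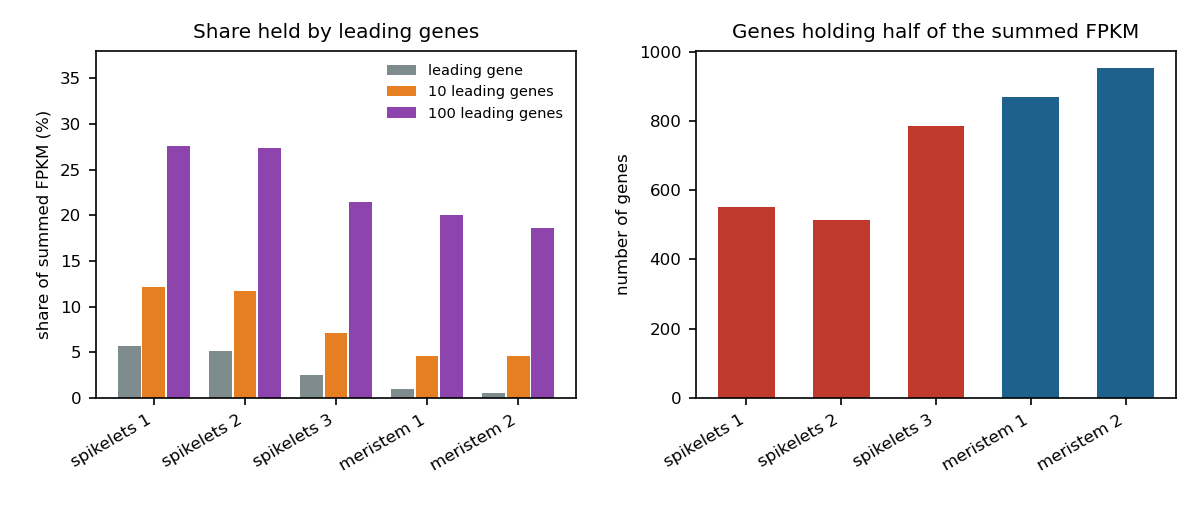
Concentration of the transcriptome in each library. Left, the share of the summed FPKM in percent held by the leading gene, the 10 leading and the 100 leading genes. Right, the number of genes that hold 50% of the summed FPKM, which is 550, 514 and 785 in the spikelet libraries (red), against 870 and 954 in the meristem libraries (blue).

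A gene was counted as on in an organ when every library had at least 5 FPKM, and as off when every library had under 0.5 FPKM. On this count 205 genes were on in spikelets and off in meristem, 0.721% of those tested, and 180 were off in spikelets and on in meristem, 0.633%. The order of the sets turned on the deposited values, with 171 genes on in spikelets and 240 on in meristem. The meristem set held 364 genes without spikelet library 3, 343 without meristem library 2 and 292 without meristem library 1, since fewer libraries then had to meet the limits. The 2 sets differed in what they were made of. Of the 205 spikelet genes, 38 were listed at 0 in both meristem libraries and 124 matched the reference table. Of the 180 meristem genes, 100 were listed at 0 in all spikelet libraries and 35 matched the reference table. An exact 0 in a file of this kind can be a failed estimate. When a value of 0 was asked for in place of 0.5 FPKM, 38 genes were on in spikelets and 100 in meristem.

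The most abundant gene on in spikelets and off in meristem was GRMZM2G496743, which has no match in the reference, with 5960, 2185 and 1475 FPKM in spikelets, against 0 and 0 FPKM in meristem. chiB followed, and then GRMZM2G121308 with 547, 275 and 299 FPKM in spikelets, against 0.308 and 0 FPKM in meristem. Among the 31 with a symbol, the leading genes after chiB were floral MADS-box genes. m1 (GRMZM2G010669) had 259, 292 and 241 FPKM in spikelets, against 0.215 and 0 FPKM in meristem. The FT-like ZCN14 followed them. Lower down stood the expansin gene expB6, the phosphate transporter gene pht1, the AP2-type factor EREB179 and the chalcone synthase gene c2, the entry enzyme of flavonoid synthesis. pht1 (GRMZM2G326707) had 32, 12.6 and 14.8 FPKM in spikelets, against 0.115 and 0 FPKM in meristem, a log2 difference of 4.18 ± 0.41 (SE, adjusted p = 0.000922). EREB179 (GRMZM2G129674) had 11.5, 23.4 and 20.6 FPKM in spikelets, against 0.0614 and 0.0623 FPKM in meristem, a log2 difference of 4.14 ± 0.34 (SE, adjusted p = 0.00059). These genes were near 0 in both meristem libraries and moderate in spikelets.

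The most abundant genes that were off in spikelets and on in meristem had no symbol and no match in the reference. GRMZM2G563480 had 0, 0 and 0 FPKM in spikelets, against 981 and 1058 FPKM in meristem. GRMZM2G522682 had 0, 0 and 0 FPKM in spikelets, against 1113 and 595 FPKM in meristem, and GRMZM2G550638 had 0, 0 and 0 FPKM in spikelets, against 935 and 126 FPKM in meristem. The meristem libraries lay far apart for the last of these, and no fold is given against spikelets listed at 0. Among the 13 with a symbol were bHLH114, DLF1, sbp21, the WRKY gene GRMZM2G125653 and the NF-YA4 gene GRMZM5G853836, which are all transcription factors. The strigolactone synthesis gene CCD8 (GRMZM2G446858) had 0, 0.0856 and 0.347 FPKM in spikelets, against 10.4 and 9.77 FPKM in meristem, a log2 difference of -3.29 ± 0.23 (SE, adjusted p = 0.000467). CUC2 (GRMZM2G393433), a NAC factor that sets organ boundaries in Arabidopsis, had 0.173, 0 and 0 FPKM in spikelets, against 8.62 and 9.98 FPKM in meristem, a log2 difference of -3.28 ± 0.22 (SE, adjusted p = 0.000385). tin1 (GRMZM2G059088) had 0, 0 and 0 FPKM in spikelets, against 6.01 and 6.58 FPKM in meristem. These 3 genes were expressed at about 6 to 10 FPKM in meristem, well below the leading genes without a symbol.

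**Figure D3:**
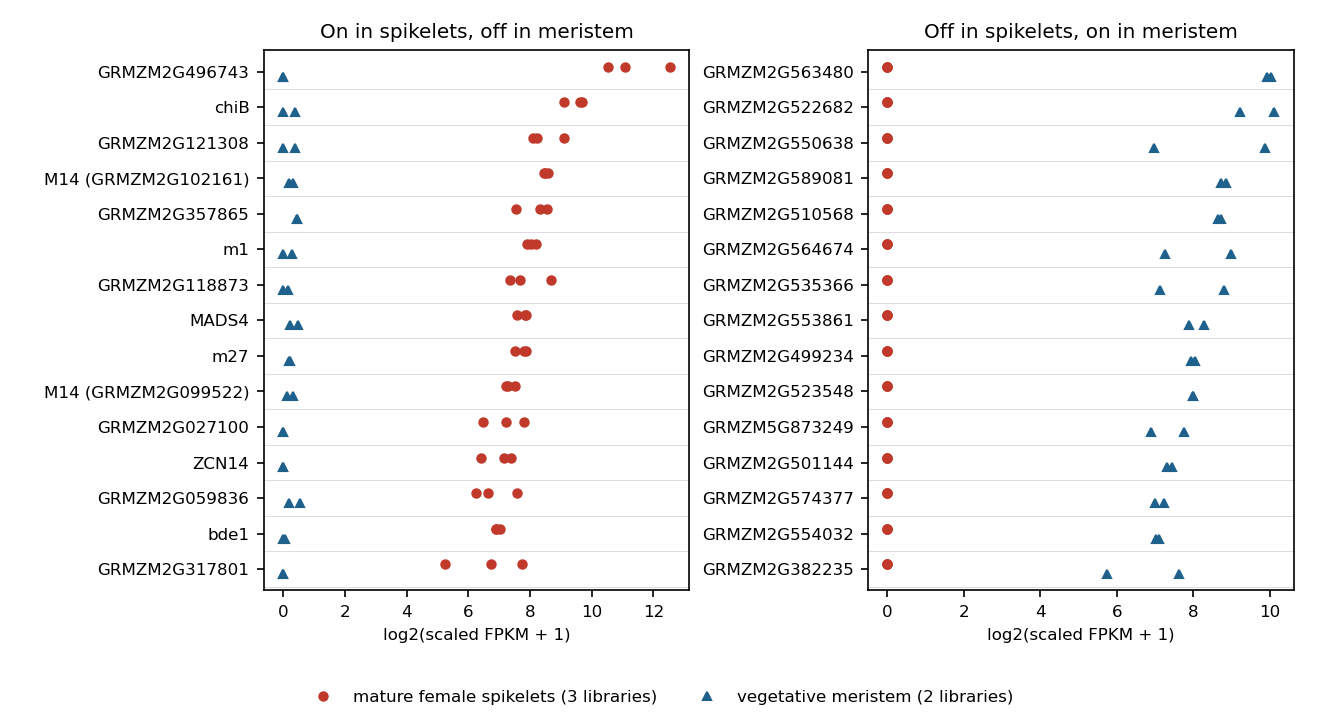
Levels of the 15 most abundant genes on in spikelets and off in meristem (left) and off in spikelets and on in meristem (right), as log2(scaled FPKM + 1). Circles are the 3 spikelet libraries and triangles the 2 meristem libraries. The left set holds chiB and MADS-box genes, and every gene of the right set is listed at 0 in all spikelet libraries.

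Of 7 tested chitinase and pathogenesis-related genes, 5 rose and 1 fell, with a median log2 difference of 2.55, against -0.04 over all tested genes. PR-5 (GRMZM2G402631) had 99.3, 60.6 and 61 FPKM in spikelets, against 1.29 and 0.307 FPKM in meristem, a log2 difference of 5.39 ± 0.35 (SE, adjusted p = 0.00035). chiA (GRMZM2G051943), a relative of chiB, had 12.5, 2.7 and 16.8 FPKM in spikelets, against 0.803 and 0.495 FPKM in meristem, a log2 difference of 2.55 ± 0.66 (SE, adjusted p = 0.0217), and the range among spikelets was wide. The exception was PR10 (GRMZM2G112524), a small intracellular pathogenesis-related protein, with 0.2, 0.295 and 0.199 FPKM in spikelets, against 12.4 and 9.19 FPKM in meristem, a log2 difference of -3.25 (adjusted p = 0.000467). The count that rose was 3 without meristem library 1 and 3 without meristem library 2. Cystatins are inhibitors of cysteine proteases, and 5 of 6 rose, with a median of 1.72. cc7 (GRMZM2G148925) had 344, 276 and 247 FPKM in spikelets, against 27.1 and 33 FPKM in meristem, a log2 difference of 3.21 (adjusted p = 0.000457). cc4 (GRMZM2G013461) had 312, 425 and 318 FPKM in spikelets, against 129 and 98.7 FPKM in meristem, a log2 difference of 1.62 (adjusted p = 0.00346). For cystatins the count was 1 without meristem library 2. Of 8 lipid transfer and wax genes 5 rose (2 without meristem library 1 and 2 without meristem library 2) and 1 fell. The phospholipid transfer gene plt1 (GRMZM2G101958) had 191, 133 and 124 FPKM in spikelets, against 11.5 and 9.76 FPKM in meristem, a log2 difference of 3.67 (adjusted p = 0.000394), beside plt2 and LTP3. The wax genes differed. Of 2 genes named CER1, which forms wax alkanes in Arabidopsis, CER1 (GRMZM2G066578) had 6.47, 1.69 and 2.86 FPKM in spikelets, against 0.607 and 0.159 FPKM in meristem, a log2 difference of 1.64 (adjusted p = 0.0262), and CER1 (GRMZM2G099097) had 2.58, 3.58 and 6.43 FPKM in spikelets, against 35.4 and 43.6 FPKM in meristem, a log2 difference of -3.02 (adjusted p = 0.00137). The calls of chiA, cc4 and GRMZM2G066578 did not hold with at least 1 of meristem library 1 and meristem library 2 absent (adjusted p 0.0591 to 0.217). Calls also ended with no filter for chiA and GRMZM2G066578 (adjusted p 0.0541 to 0.0609).

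Expansins, the proteins that loosen cell walls so that cells can enlarge, were higher in spikelets: 12 of 14 tested, from 16 in the table, rose and the other 2 did not pass, with a median of 2.11. expa1 (GRMZM2G339122) had 104, 216 and 252 FPKM in spikelets, against 7.02 and 3.75 FPKM in meristem, a log2 difference of 4.86 ± 0.43 (SE, adjusted p = 0.000728). expB4 (GRMZM2G154178) had 29.5, 36.6 and 31.6 FPKM in spikelets, against 0.816 and 0.641 FPKM in meristem, a log2 difference of 4.28 ± 0.22 (SE, adjusted p = 0.000187). expB2 (GRMZM2G021621) had 102, 115 and 124 FPKM in spikelets, against 23.2 and 19.8 FPKM in meristem, a log2 difference of 2.34 (adjusted p = 0.00061). In expB4 and expB2 the spikelet libraries lay close together, and in expa1 library 1 was the lowest. The pollen-type beta-expansin gene EXPB1 (GRMZM2G146551) had 29, 19.6 and 4.74 FPKM in spikelets, against 2.2 and 1.59 FPKM in meristem, a log2 difference of 2.40 (adjusted p = 0.0289), and spikelet library 3 was the closest to the meristem. Its spikelet libraries ran in the order of the pollen marker sums, 107, 73.4 and 19.6 FPKM in spikelets, against 9.04 and 6.81 FPKM in meristem. EXPB1 is itself counted in these sums, so the shared order is not separate evidence. The part of pollen transcripts in the result was not tested. The number of expansins that rose was 6 without meristem library 1 and 7 without meristem library 2. Beta-expansins of the pollen group are closely related in sequence, so reads may be split among them. EXPB1 lost its call when meristem library 1, meristem library 2 or spikelet library 2 was left out (adjusted p 0.0762 to 0.222). Calls also ended with no filter for EXPB1 (adjusted p = 0.0667).

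Water channels were mostly higher as well. Of 20 tested aquaporins, from 26 in the table, 15 rose and 1 fell, with a median of 1.58. TIP4-4 (GRMZM2G093090), in the membrane of the vacuole, had 186, 177 and 117 FPKM in spikelets, against 3.52 and 0.648 FPKM in meristem, a log2 difference of 5.85 ± 0.45 (SE, adjusted p = 0.000541). PIP2-1 (GRMZM2G014914), in the plasma membrane, had 615, 656 and 830.3 FPKM in spikelets, against 159 and 144 FPKM in meristem, a log2 difference of 2.19 ± 0.23 (SE, adjusted p = 0.00114). PIP2-6 (GRMZM2G047368) had 39.7, 94 and 127 FPKM in spikelets, against 3.8 and 4.41 FPKM in meristem, a log2 difference of 3.96 (adjusted p = 0.00163). PIP2-1 was the more abundant of these in both organs, and in PIP2-6 spikelet library 1 was the lowest. NIP1-1 (GRMZM2G041980) had 341, 259 and 226 FPKM in spikelets, against 57.4 and 55.6 FPKM in meristem, a log2 difference of 2.24 (adjusted p = 0.00109). NIP2-2 (GRMZM2G137108) was the exception, with 0.336, 0 and 0.0587 FPKM in spikelets, against 6.84 and 2.04 FPKM in meristem, a log2 difference of -2.12 (adjusted p = 0.00817). For aquaporins the count that rose was 8 without meristem library 1 and 9 without meristem library 2.

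**Figure D4:**
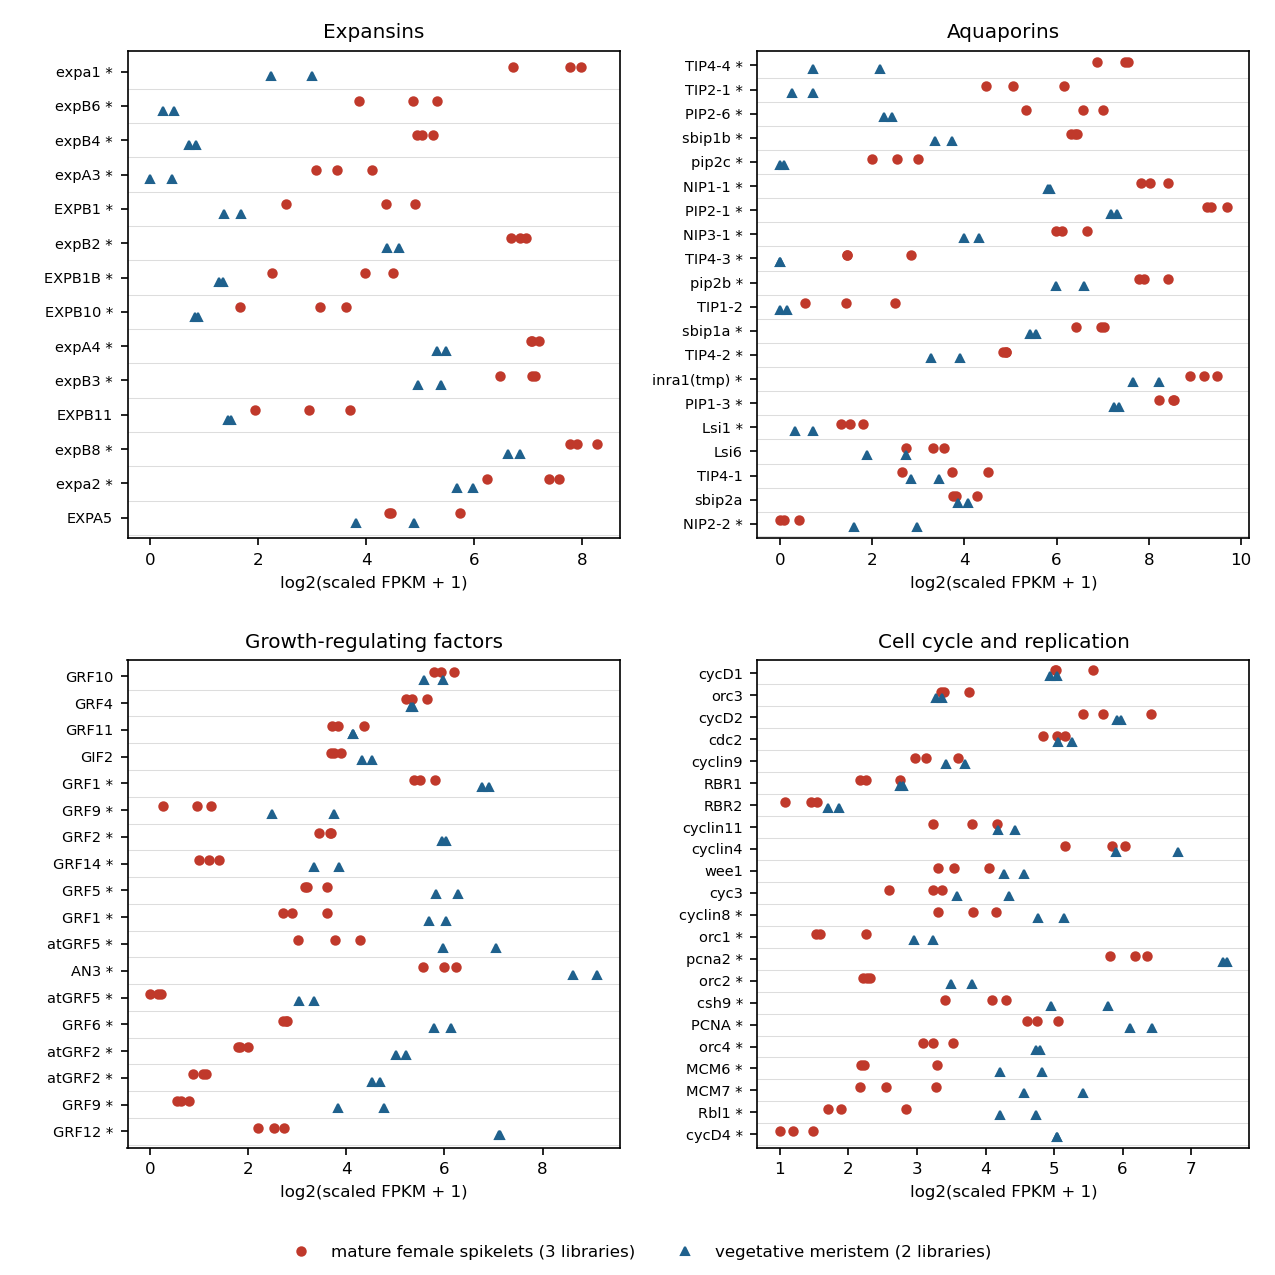
Levels of every tested expansin, aquaporin, growth-regulating factor (with the coactivators AN3 and GIF2) and cell cycle or replication gene, as log2(scaled FPKM + 1). Circles are the 3 spikelet libraries, triangles the 2 meristem libraries, and an asterisk marks a changed gene. Of the genes with an asterisk, the 12 expansins and 15 of the 16 aquaporins lie to the right in spikelets, and NIP2-2, the 14 growth-regulating factors or coactivators and the 11 cell cycle or replication genes to the left.

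The cytoskeleton changed member by member. tub4 (GRMZM2G066191), a beta-tubulin of the microtubule, had 94.1, 69.8 and 90.8 FPKM in spikelets, against 3.14 and 1.84 FPKM in meristem, a log2 difference of 4.63 ± 0.25 (SE, adjusted p = 0.000225). tub3 (GRMZM2G108766) had 212, 196 and 171 FPKM in spikelets, against 29.6 and 22.1 FPKM in meristem, a log2 difference of 2.86 ± 0.22 (SE, adjusted p = 0.000535). TUB8 (GRMZM2G472945) had 2.81, 4.98 and 3.86 FPKM in spikelets, against 14.4 and 12.5 FPKM in meristem, a log2 difference of -1.58 (adjusted p = 0.00509). Of 10 tested tubulins 4 rose and 1 fell, which was 0 without meristem library 1 (limma, 1 at an unadjusted p under 0.05) and 0 without meristem library 2 (limma, 1 at an unadjusted p under 0.05). Among 13 actins, profilins and actin-depolymerising factors 7 rose and 1 fell. The first count was 3 without meristem library 1 and 1 without meristem library 2. The second was 0 without meristem library 1 (limma, 2 at an unadjusted p under 0.05), 0 without meristem library 2 (limma, 1 at an unadjusted p under 0.05), 2 without spikelet library 3 and 2 on the deposited values. PRO4 (GRMZM2G108780), a profilin that binds actin monomers, had 522, 529 and 401 FPKM in spikelets, against 165 and 115 FPKM in meristem, a log2 difference of 1.80 (adjusted p = 0.00292). The pollen profilin prf1 (GRMZM2G074361) had 37.6, 21.5 and 6.52 FPKM in spikelets, against 3.17 and 2.47 FPKM in meristem, a log2 difference of 2.30 (adjusted p = 0.0295). Its library order was that of EXPB1 and of the pollen marker sums, which count prf1 itself and so are not separate evidence. The part of pollen transcripts in this result was not tested. Profilin (GRMZM2G140455) had 3.02, 1.67 and 1.69 FPKM in spikelets, against 8.14 and 6.5 FPKM in meristem, a log2 difference of -1.43 (adjusted p = 0.00861). The calls of TUB8, PRO4, prf1 and Profilin ended with at least 1 of meristem library 1, meristem library 2 and spikelet library 2 left out (adjusted p 0.0506 to 0.222). Calls also ended with no filter for prf1 (adjusted p = 0.0673).

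Genes of light capture were higher in spikelets, although neither organ is a mature leaf. Of 13 tested light-harvesting, photosystem and ferredoxin genes, 12 rose and the other did not pass, with a median of 2.67. FdI (GRMZM2G122337), a ferredoxin that takes electrons from photosystem I, had 145, 128 and 77.1 FPKM in spikelets, against 2.82 and 2.16 FPKM in meristem, a log2 difference of 5.03 ± 0.31 (SE, adjusted p = 0.000306). cab-m9 (GRMZM2G155216), a chlorophyll a/b binding protein, had 45.5, 70.2 and 61.5 FPKM in spikelets, against 9.78 and 7.03 FPKM in meristem, a log2 difference of 2.67 ± 0.26 (SE, adjusted p = 0.000904). psad1 (GRMZM2G024150), a photosystem I subunit, had 7.36, 7.62 and 5.06 FPKM in spikelets, against 0.201 and 0.098 FPKM in meristem, a log2 difference of 2.72 (adjusted p = 0.000835). FdI and psad1 were lowest in spikelet library 3, and cab-m9 in library 1. The leaf marker sums moved with this group, 384, 395 and 311 FPKM in spikelets, against 122 and 113 FPKM in meristem. Light-harvesting genes are also counted in those sums, so the shared direction is not separate evidence. The part of leaf-like tissue such as glumes in the result was not tested. The count that rose was 6 without meristem library 1 and 6 without meristem library 2. Of 17 genes of carbon fixation 12 rose and 1 fell. The first count was 5 without meristem library 1 and 5 without meristem library 2, and the second was 2 on the deposited values and 2 with a pseudocount of 0.1. RA (GRMZM2G162200), for Rubisco activase, had 12.8, 10.1 and 8.72 FPKM in spikelets, against 0.448 and 0.499 FPKM in meristem, a log2 difference of 2.96 (adjusted p = 0.000654). The small subunit of Rubisco, rbcS (GRMZM2G098520), had 99.1, 49 and 40.1 FPKM in spikelets, against 12.1 and 9.79 FPKM in meristem, a log2 difference of 2.31 (adjusted p = 0.00501). C4ppdkZm1 (GRMZM2G306345), for pyruvate orthophosphate dikinase, had 8.54, 8.7 and 15.6 FPKM in spikelets, against 0.418 and 0.0694 FPKM in meristem, a log2 difference of 3.23 (adjusted p = 0.00104). Library 1 was the highest spikelet library for Rubisco and library 3 for the dikinase. The PEP carboxylase gene Pep1 (GRMZM5G899080) did not pass, with 52.8, 66.9 and 29 FPKM in spikelets, against 37.6 and 34.8 FPKM in meristem. Another entry of that name, pep1 (GRMZM2G083841), was too low to be tested. Its deposited values were 0, 0.0776 and 0.0871 FPKM in spikelets, against 0 and 0 FPKM in meristem. ME1 (GRMZM2G085019), an NADP-malic enzyme, fell, with 0.354, 0.602 and 0.594 FPKM in spikelets, against 3.14 and 4.32 FPKM in meristem, a log2 difference of -1.63 (adjusted p = 0.00262). The call of GRMZM2G098520 did not hold with meristem library 1 or meristem library 2 absent (adjusted p 0.0702 to 0.0871).

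Many genes of sugar use and some of fermentation were higher in spikelets too. Of 16 tested genes of glycolysis and fermentation 11 rose and the other 5 did not pass, with a median of 1.25, and the count was 6 without meristem library 1, 6 without meristem library 2 and 6 on the deposited values. The glyceraldehyde-3-phosphate dehydrogenase gene GAPC (GRMZM2G046804) had 1497, 1692 and 1772 FPKM in spikelets, against 375 and 334 FPKM in meristem, a log2 difference of 2.22 ± 0.25 (SE, adjusted p = 0.00128). Alcohol dehydrogenase is the last enzyme of ethanol fermentation. adh1 (GRMZM2G442658) had 612, 758 and 897 FPKM in spikelets, against 169 and 158 FPKM in meristem, a log2 difference of 2.19 ± 0.25 (SE, adjusted p = 0.00136). adh2 (GRMZM2G098346) had 87.6, 73.6 and 108 FPKM in spikelets, against 7.89 and 6.88 FPKM in meristem, a log2 difference of 3.42 (adjusted p = 0.000382). Spikelet library 3 was the highest for all 3 genes. The fermentation genes PDC (GRMZM2G087186), PDC (GRMZM2G038821) and LDH (GRMZM2G128929) did not pass. Their log2 differences were 0.90, 0.34 and 0.28 (adjusted p 0.0359, 0.538 and 0.336). Among 9 genes of sucrose transport and cleavage 6 rose and 1 fell. The vacuolar invertase gene ivr2 (GRMZM2G089836) had 65.8, 36.1 and 112 FPKM in spikelets, against 14.3 and 4.54 FPKM in meristem, a log2 difference of 2.83 (adjusted p = 0.00995). The sucrose transporter gene sut1 (GRMZM2G034302), which loads the phloem, had 16.4, 19.7 and 39.1 FPKM in spikelets, against 4.66 and 1.86 FPKM in meristem, a log2 difference of 2.60 (adjusted p = 0.0056). sut2 (GRMZM2G145107) had 3.33, 2.12 and 4.89 FPKM in spikelets, against 12.1 and 9.11 FPKM in meristem, a log2 difference of -1.42 (adjusted p = 0.0149). The sucrose synthase gene SH-1 (GRMZM2G089713) had 128, 114 and 150.1 FPKM in spikelets, against 44.3 and 54 FPKM in meristem, a log2 difference of 1.39 (adjusted p = 0.00341). For sucrose genes the count that rose was 3 without meristem library 2, and the count that fell was 0 without meristem library 1 (limma, 0 at an unadjusted p under 0.05), 0 without meristem library 2 (limma, 1 at an unadjusted p under 0.05), 2 without spikelet library 3 and 2 on the deposited values. ivr2, sut1, sut2 and SH-1 each lost its call when at least 1 of meristem library 1 and meristem library 2 was left out (adjusted p 0.0507 to 0.142).

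Starch genes either rose or did not pass. Of 13 tested genes 5 rose, and the count was 1 without meristem library 1 and 2 without meristem library 2. The list's median was 0.22 after scaling and -0.15 on the deposited values, so no direction is given for it. AGP2 (GRMZM2G027955), a subunit of ADP-glucose pyrophosphorylase, had 108, 175 and 151 FPKM in spikelets, against 39.8 and 42.3 FPKM in meristem, a log2 difference of 1.76 ± 0.25 (SE, adjusted p = 0.0028). ae1 (GRMZM2G032628), a starch branching enzyme, had 7.75, 8.29 and 11 FPKM in spikelets, against 1.97 and 2.77 FPKM in meristem, a log2 difference of 1.57 ± 0.26 (SE, adjusted p = 0.00466). Another step did not pass: ss1 (GRMZM2G129451), a starch synthase, had 27.6, 24 and 42.8 FPKM in spikelets, against 27.4 and 30.4 FPKM in meristem (log2 difference 0.08, adjusted p = 0.839). The calls of AGP2 and ae1 ended with at least 1 of meristem library 1 and meristem library 2 left out (adjusted p 0.0506 to 0.0687).

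Of 5 tested genes of flavonoid synthesis 4 rose in spikelets and 1 fell. c2 (GRMZM2G422750), chalcone synthase, had 22.7, 12.8 and 19.8 FPKM in spikelets, against 0.397 and 0.283 FPKM in meristem, a log2 difference of 3.82 ± 0.30 (SE, adjusted p = 0.000547). CHI (GRMZM2G155329), chalcone isomerase and the next enzyme, had 868, 722 and 625 FPKM in spikelets, against 28 and 35.3 FPKM in meristem, a log2 difference of 4.50 ± 0.24 (SE, adjusted p = 0.000198). CHI was far more abundant than c2 in both organs. A1 (GRMZM2G026930), dihydroflavonol reductase, had 42.5, 16.8 and 27 FPKM in spikelets, against 4.41 and 4.57 FPKM in meristem, a log2 difference of 2.35 (adjusted p = 0.00426). bronze (GRMZM2G165390), the anthocyanidin glucosyltransferase, had 8.98, 9.09 and 8.66 FPKM in spikelets, against 1.56 and 2.91 FPKM in meristem, a log2 difference of 1.65 (adjusted p = 0.00409). bronze-2 (GRMZM2G016241), a glutathione transferase needed to store anthocyanin in the vacuole, went the other way, with 0.985, 1.14 and 0.904 FPKM in spikelets, against 10.1 and 8.52 FPKM in meristem, a log2 difference of -2.36 (adjusted p = 0.000838). The count that rose was 2 without meristem library 1. In the lignin branch 6 of 11 rose and 2 fell, and the first count was 3 on the deposited values. With 19.2% lower over all tested genes, nothing is read from the lignin count that fell. cad1 (GRMZM2G046070) had 87, 81.6 and 63.5 FPKM in spikelets, against 2.41 and 2.08 FPKM in meristem, a log2 difference of 4.58 (adjusted p = 0.000152). ccr2 (GRMZM2G131836), a cinnamoyl-CoA reductase, had 0.142, 0 and 0.0739 FPKM in spikelets, against 3.84 and 3.37 FPKM in meristem, a log2 difference of -2.10 (adjusted p = 0.000834). The calls of A1 and bronze did not hold with at least 1 of meristem library 1 and meristem library 2 absent (adjusted p 0.0511 to 0.0721).

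Benzoxazinoids are nitrogen-containing defence compounds of grasses. Several genes of their synthesis fell in spikelets, while the release gene glu1 rose. bx2 (GRMZM2G085661), the cytochrome P450 that follows bx1, had 15.2, 16.1 and 35.4 FPKM in spikelets, against 115 and 109 FPKM in meristem, a log2 difference of -2.39 ± 0.38 (SE, adjusted p = 0.00388). The glucosyltransferase gene bx9 (GRMZM2G161335), whose product makes the compounds safe to store, had 62.8, 45.6 and 65.4 FPKM in spikelets, against 227 and 229 FPKM in meristem, a log2 difference of -1.97 ± 0.22 (SE, adjusted p = 0.00136). bx8 (GRMZM2G085054) did not pass, with 41.8, 61.1 and 52.6 FPKM in spikelets, against 41.7 and 42.6 FPKM in meristem (log2 difference 0.28, adjusted p = 0.34). Of the later P450 genes, BX4 (GRMZM2G172491) was lower, with 19.8, 21.9 and 36.7 FPKM in spikelets, against 57.4 and 46.6 FPKM in meristem, a log2 difference of -1.01 (adjusted p = 0.0347), and BX3 and BX5 did not pass. BX3 (GRMZM2G167549) had 549, 665 and 624 FPKM in spikelets, against 634 and 548 FPKM in meristem (log2 difference 0.05, adjusted p = 0.875). BX5 (GRMZM2G063756) had 229, 334 and 613 FPKM in spikelets, against 326 and 280.3 FPKM in meristem (log2 difference 0.26, adjusted p = 0.646). The libraries of the 2 organs overlapped for both, and BX5 was highest in spikelet library 3. The releasing enzyme glu1 was the only one of 11 tested genes to rise, and 5 fell (3 without meristem library 1 and 3 without meristem library 2). The count that rose was 2 without spikelet library 2, 2 with a pseudocount of 0.1 and 2 with all 11 matched libraries. glu2 (GRMZM2G008247) did not pass in the main fit, with a log2 difference of 1.93 (adjusted p = 0.0538). bx2 and BX4 each lost its call when at least 1 of meristem library 1, meristem library 2, spikelet library 1 and spikelet library 2 was left out (adjusted p 0.0654 to 0.217). Calls also ended with all 11 matched libraries for BX4 (adjusted p = 0.00559, with a difference under 1) and with no filter for BX4 (adjusted p = 0.0624).

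Growth-regulating factors, transcription factors that promote cell proliferation in young leaves, were lower in spikelets. Of 18 tested genes, which include the coactivators, 14 fell and the other 4 did not pass, with a median of -2.76. Their coactivator AN3 (GRMZM2G180246) had 62.6, 74.3 and 46.2 FPKM in spikelets, against 391 and 553 FPKM in meristem, a log2 difference of -2.93 ± 0.28 (SE, adjusted p = 0.000847). GRF6 (GRMZM2G041223) had 5.83, 5.9 and 5.56 FPKM in spikelets, against 54.4 and 69.5 FPKM in meristem, a log2 difference of -3.21 ± 0.20 (SE, adjusted p = 0.00035). The spikelet libraries of GRF6 lay within a narrow range far under the meristem. GRF4 (GRMZM2G004619) had 39.3, 48.8 and 36.2 FPKM in spikelets, against 39.8 and 39.1 FPKM in meristem (log2 difference 0.06, adjusted p = 0.84), and GRF10 (GRMZM2G096709) had 59.9, 72.2 and 54 FPKM in spikelets, against 62 and 47.1 FPKM in meristem (log2 difference 0.18, adjusted p = 0.53). For GRF4 and GRF10 the libraries of the 2 organs overlapped. Without meristem library 2, 11 of the 18 genes fell.

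Genes of DNA replication were among the cell cycle genes lower in spikelets. Of 22 tested genes 11 fell and the other 11 did not pass, with a median of -1.05. The count was 5 without meristem library 1 and 1 without meristem library 2. MCM7 (GRMZM2G065205), a subunit of the replicative helicase, had 3.48, 4.86 and 8.74 FPKM in spikelets, against 22.6 and 41.7 FPKM in meristem, a log2 difference of -2.32 ± 0.41 (SE, adjusted p = 0.00581). pcna2 (GRMZM2G108712), the sliding clamp of DNA polymerase, had 55.6, 71.7 and 81 FPKM in spikelets, against 175 and 183 FPKM in meristem, a log2 difference of -1.37 ± 0.22 (SE, adjusted p = 0.00436). cycD4 (GRMZM2G133413), a D-type cyclin that starts the cycle, had 0.997, 1.8 and 1.28 FPKM in spikelets, against 31.9 and 31.9 FPKM in meristem, a log2 difference of -3.81 (adjusted p = 0.00035). Spikelet library 3 was the closest to the meristem for MCM7 and pcna2 but not for cycD4. cdc2 (GRMZM2G008327), the cyclin-dependent kinase, had 34.6, 32.1 and 27.6 FPKM in spikelets, against 37.4 and 32.4 FPKM in meristem (log2 difference -0.15, adjusted p = 0.568), and cycD1 (GRMZM2G006721) had 31.6, 46.3 and 31.4 FPKM in spikelets, against 29.6 and 32 FPKM in meristem (log2 difference 0.21, adjusted p = 0.49). Histone genes mostly did not pass. Of 11 tested, 1 rose, and the other 10 did not pass. H4C13 (GRMZM2G149178), for histone H4, had 1820, 2501 and 1863 FPKM in spikelets, against 2783 and 1508 FPKM in meristem. Summed over 24 marker genes of dividing cells, the level was 9893, 12200 and 8868 FPKM in spikelets, against 9771 and 6999 FPKM in meristem, so the organs overlapped. Of these 24 genes 7 were lower in spikelets, all on the cell cycle and replication list, and 1 was higher, while the abundant histone genes made up most of the sum. The calls of MCM7 and pcna2 ended with at least 1 of meristem library 1 and meristem library 2 left out (adjusted p 0.0522 to 0.0893).

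Most chromatin modifiers did not pass in either direction. Of 40 tested 8 fell and the other 32 did not pass, with a median of -0.43. Over all tested genes 35.6% changed in either direction and 19.2% were lower, so no trait of the list is read from the count that fell. mez1 (GRMZM2G157820), of the Polycomb methyltransferase group Enhancer of zeste, had 4.08, 5.61 and 8.95 FPKM in spikelets, against 41.9 and 39.6 FPKM in meristem, a log2 difference of -2.59 ± 0.31 (SE, adjusted p = 0.00166). Its relatives mez2 (GRMZM5G875502) and mez3 (GRMZM2G043484) did not pass. The values of mez2 were 3.16, 2.28 and 3.54 FPKM in spikelets, against 3.51 and 5.17 FPKM in meristem, and those of mez3 were 1.75, 0.957 and 2.16 FPKM in spikelets, against 2.56 and 2.56 FPKM in meristem. The count that fell was 3 without meristem library 1 and 5 without meristem library 2. In small RNA pathways dcl1 (GRMZM2G040762), the Dicer that cuts microRNAs, had 1.04, 0.637 and 1.6 FPKM in spikelets, against 9.86 and 12.8 FPKM in meristem, a log2 difference of -2.57 ± 0.29 (SE, adjusted p = 0.00129). rdr6 (GRMZM2G145201), an RNA-dependent RNA polymerase of trans-acting small RNAs, had 7.42, 6.82 and 11.9 FPKM in spikelets, against 2.73 and 2.9 FPKM in meristem, a log2 difference of 1.31 (adjusted p = 0.0124). The call of rdr6 did not hold with meristem library 1 or meristem library 2 absent (adjusted p 0.111 to 0.119). Calls also ended on the deposited values for rdr6 (adjusted p = 0.0404, with a difference under 1).

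Auxin transport changed in both directions. All 8 tested carriers, from 10 in the table, passed. In spikelets 2 rose, which was 1 without meristem library 2, and 6 fell. PIN1a (GRMZM2G098643), the export carrier best known at organ initiation, had 1.93, 4.29 and 4.93 FPKM in spikelets, against 19.4 and 46 FPKM in meristem, a log2 difference of -2.78 ± 0.46 (SE, adjusted p = 0.00465). aic1 (GRMZM2G129413) and AUX1 (GRMZM2G000158), import carriers, fell as well. AUX1 had 0.875, 0.898 and 0.67 FPKM in spikelets, against 15.4 and 11.9 FPKM in meristem (adjusted p = 0.000557). The gene aic1 had 3.79, 10.7 and 9.02 FPKM in spikelets, against 68.5 and 65.5 FPKM in meristem, a log2 difference of -3.04 ± 0.40 (SE, adjusted p = 0.00208). PIN10a (GRMZM2G126260) had 10.7, 14.6 and 24.3 FPKM in spikelets, against 0.505 and 0.153 FPKM in meristem, a log2 difference of 3.66 (adjusted p = 0.000983). Among the tested PIN genes, PIN1d and PIN1a had the highest means in meristem and PIN10a the highest in spikelets. PIN5c (GRMZM2G040911) had 5.19, 9.36 and 9.23 FPKM in spikelets, against 2.06 and 0.263 FPKM in meristem, a log2 difference of 2.14 (adjusted p = 0.0103). Among 16 auxin response factors 7 fell and the other 9 did not pass. The count was 3 without meristem library 1 and 3 without meristem library 2. ARF3 (GRMZM2G078274) had 33.1, 41.7 and 60.5 FPKM in spikelets, against 236 and 193 FPKM in meristem, a log2 difference of -2.26 (adjusted p = 0.00195). Of 16 Aux/IAA repressors 3 rose and 6 fell. AUX14 (GRMZM2G077356) had 110.3, 102 and 83.3 FPKM in spikelets, against 33 and 25.7 FPKM in meristem, a log2 difference of 1.71 (adjusted p = 0.00196). IAA12 (GRMZM2G128421) had 2.4, 2.36 and 1.67 FPKM in spikelets, against 20.8 and 18.8 FPKM in meristem, a log2 difference of -2.73 (adjusted p = 0.00067). PIN1a, aic1 and PIN5c each lost its call when at least 1 of meristem library 1 and meristem library 2 was left out (adjusted p 0.0515 to 0.102).

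Members of other hormone lists also changed in both directions. For cytokinin 6 of 22 rose and 5 fell, against 16.4% higher and 19.2% lower over all tested genes, so nothing is read from these counts. The first count was 3 without meristem library 1 and 3 without meristem library 2, and the second 3 without meristem library 2. The response regulators crr1 (GRMZM2G040736) and RR9 (GRMZM2G060485) moved in opposite directions. The values of crr1 were 30.7, 42.1 and 23.9 FPKM in spikelets, against 4.52 and 2.33 FPKM in meristem, a log2 difference of 2.92 ± 0.33 (SE, adjusted p = 0.00138). RR9 had 2.38, 1.89 and 3.34 FPKM in spikelets, against 27.4 and 26 FPKM in meristem, a log2 difference of -2.99 ± 0.26 (SE, adjusted p = 0.000664). Of the cytokinin oxidases, which break the hormone down, CKX10 (GRMZM2G348452) had 29, 22 and 22.2 FPKM in spikelets, against 8.68 and 11.6 FPKM in meristem, a log2 difference of 1.19 (adjusted p = 0.00828). Of 6 gibberellin genes 2 rose (0 without meristem library 1 (limma, 2 at an unadjusted p under 0.05), 1 without meristem library 2, 1 without spikelet library 2 and 1 on the deposited values) and 2 fell (0 without meristem library 1 (limma, 2 at an unadjusted p under 0.05) and 1 without meristem library 2). The synthesis gene an1 (GRMZM2G081554), for the first step, had 0.422, 0.991 and 1.99 FPKM in spikelets, against 12.1 and 8.54 FPKM in meristem, a log2 difference of -2.45 (adjusted p = 0.00324). CYP88A1 (GRMZM2G093195), a later oxidase, had 1.16, 1.41 and 2.06 FPKM in spikelets, against 5.67 and 4.75 FPKM in meristem, a log2 difference of -1.30 (adjusted p = 0.00817). Dwarf1 (GRMZM2G036340), also in this list, was higher, with 1.75, 2.94 and 1.81 FPKM in spikelets, against 0.635 and 0.376 FPKM in meristem, a log2 difference of 1.06 (adjusted p = 0.0171). The DELLA repressor genes differed. d9 (GRMZM2G024973) had 52.5, 61.8 and 81.5 FPKM in spikelets, against 16.8 and 22.3 FPKM in meristem, a log2 difference of 1.68 (adjusted p = 0.00345), while D8 (GRMZM2G144744) had 74.3, 87 and 111 FPKM in spikelets, against 79.7 and 116 FPKM in meristem (adjusted p = 0.785). The calls of CKX10, an1, CYP88A1, Dwarf1 and d9 ended with at least 1 of meristem library 1, meristem library 2 and spikelet library 2 left out (adjusted p 0.0407 to 0.127). Calls also ended on the deposited values for CKX10 and Dwarf1 (adjusted p 0.0262 to 0.0298, with a difference under 1).

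Dehydration genes included some of the steepest increases, with 5 of 8 rising and a median of 2.13. The count was 2 without meristem library 1 and 2 without meristem library 2. vp14 (GRMZM2G014392), the carotenoid-cleaving enzyme that limits abscisic acid synthesis, had 7.57, 24.9 and 27 FPKM in spikelets, against 3.12 and 1.15 FPKM in meristem, a log2 difference of 2.63 ± 0.58 (SE, adjusted p = 0.0126). The dehydrin gene dhn1 (GRMZM2G079440) had 109, 28.3 and 9.75 FPKM in spikelets, against 0.0933 and 2.68 FPKM in meristem, a log2 difference of 4.03 ± 0.99 (SE, adjusted p = 0.0184). Spikelet libraries of dhn1 spanned more than 10 times, with library 3 lowest, while vp14 was lowest in library 1. dehydrin3 (GRMZM2G373522) did not pass and was lower in each spikelet library, with 75.5, 109 and 213 FPKM in spikelets, against 243 and 229.9 FPKM in meristem (log2 difference -0.96, adjusted p = 0.109). Protein phosphatases 2C, which hold ABA signalling off, rose in 6 of 22 genes and fell in 1. The first count was 3 without meristem library 1 and 3 without meristem library 2, and the second was 2 on the deposited values. PP2C16 (GRMZM2G082487) had 9.9, 18.2 and 17.9 FPKM in spikelets, against 0.123 and 0.113 FPKM in meristem, a log2 difference of 3.82 (adjusted p = 0.000633). In the jasmonate list 7 of 39 rose and 5 fell, against 16.4% higher and 19.2% lower over all tested genes, so nothing is read from these counts. The first count was 1 without meristem library 1, 0 without meristem library 2 (limma, 5 at an unadjusted p under 0.05) and 3 on the deposited values. The second was 2 without meristem library 1, 2 without meristem library 2, 3 without spikelet library 2, 8 on the deposited values and 3 with no filter. The calls of vp14 and dhn1 did not hold with at least 1 of meristem library 1 and meristem library 2 absent (adjusted p 0.0843 to 0.204).

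Transcription factor families differed in balance, against 16.4% higher and 19.2% lower over all tested genes. The floral MADS-box list had 27 of 34 tested genes higher and 5 lower. In the SBP-box family, known for phase change and branching, 4 of 22 rose and 8 fell (4 without meristem library 1 and 4 without meristem library 2). Nothing is read from the SBP-box count that rose. tga1 (GRMZM2G101511), the glume architecture gene, had 20.9, 33.8 and 30.4 FPKM in spikelets, against 2.4 and 3.33 FPKM in meristem, a log2 difference of 2.91 ± 0.28 (SE, adjusted p = 0.000842). ub2 (GRMZM2G160917), which restrains tassel and tiller branching, had 3.66, 7.62 and 7.26 FPKM in spikelets, against 45.1 and 77 FPKM in meristem, a log2 difference of -3.12 ± 0.37 (SE, adjusted p = 0.00155). The 2 members thus differed in direction. Among 10 YABBY and KANADI genes of organ polarity 5 rose (3 without meristem library 1 and 3 without meristem library 2) and 2 fell (1 without meristem library 1 and 1 without meristem library 2). YAB3 (GRMZM2G106204) had 95.4, 44.6 and 45.1 FPKM in spikelets, against 9.55 and 8.64 FPKM in meristem, a log2 difference of 2.54 (adjusted p = 0.00279). yab14 (GRMZM2G005353) had 7, 11.7 and 16.1 FPKM in spikelets, against 37.8 and 30.8 FPKM in meristem, a log2 difference of -1.55 (adjusted p = 0.0126). kan1 (GRMZM2G056400) had 1.31, 0.714 and 0.633 FPKM in spikelets, against 6.72 and 6.72 FPKM in meristem, a log2 difference of -2.05 (adjusted p = 0.0017). YAB3 and yab14 each lost its call when at least 1 of meristem library 1 and meristem library 2 was left out (adjusted p 0.0553 to 0.134).

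The basic helix-loop-helix family leaned to the meristem, with 17 of 36 lower in spikelets (10 without meristem library 1 and 10 without meristem library 2) and 5 higher (2 without meristem library 1 and 2 without meristem library 2). bHLH30 (GRMZM2G036092) had 70.1, 84.8 and 90.4 FPKM in spikelets, against 11 and 4.81 FPKM in meristem, a log2 difference of 3.30 ± 0.33 (SE, adjusted p = 0.000973). bHLH33 (GRMZM2G015666) had 0.646, 1.2 and 0.669 FPKM in spikelets, against 16.8 and 17.8 FPKM in meristem, a log2 difference of -3.33 ± 0.25 (SE, adjusted p = 0.000503). Of 28 AP2-type factors 13 were higher (4 without meristem library 1, 4 without meristem library 2 and 8 on the deposited values) and 5 lower (2 without meristem library 1). Without meristem library 2 as many were lower as higher, 4 each. Homeobox genes outside the KNOX and WOX groups had 3 of 27 higher and 8 lower (3 without meristem library 1 and 4 without meristem library 2). HB128 (GRMZM2G041462) had 73, 43.3 and 43 FPKM in spikelets, against 0.765 and 0.136 FPKM in meristem, a log2 difference of 5.21 (adjusted p = 0.00035). gt1 (GRMZM2G005624), an HD-ZIP gene that holds lateral buds and carpels back, had 32.6, 21.1 and 14.1 FPKM in spikelets, against 2.03 and 1.03 FPKM in meristem, a log2 difference of 3.17 (adjusted p = 0.00169). rld2 (GRMZM2G042250), of the class III HD-ZIP genes of upper organ side, had 4.08, 4.95 and 7.73 FPKM in spikelets, against 40.8 and 47.7 FPKM in meristem, a log2 difference of -2.81 (adjusted p = 0.000982). NAC factors had 7 of 16 higher (3 without meristem library 2) and 2 lower (1 without meristem library 1, 1 without meristem library 2 and 1 without spikelet library 1). NAC1 (GRMZM2G347043) had 92.2, 74.7 and 156 FPKM in spikelets, against 11.2 and 5.88 FPKM in meristem, a log2 difference of 3.50 (adjusted p = 0.00127).

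Of 16 antioxidant genes 10 rose and 1 fell, and the first count was 1 without meristem library 1, 1 without meristem library 2 and 3 on the deposited values. trxh1 (GRMZM2G424053), a thioredoxin, had 775, 995 and 579.5 FPKM in spikelets, against 199 and 204 FPKM in meristem, a log2 difference of 1.92 ± 0.29 (SE, adjusted p = 0.00323). sod3 (GRMZM2G059991), a superoxide dismutase, had 383, 426 and 292 FPKM in spikelets, against 112 and 108 FPKM in meristem, a log2 difference of 1.71 ± 0.23 (SE, adjusted p = 0.00245). Glutathione transferases were divided, with 8 of 23 higher (4 without meristem library 1, 4 without meristem library 2 and 5 on the deposited values) and 4 lower (2 without meristem library 1 and 2 without meristem library 2). Over all tested genes 19.2% were lower, so nothing is read from the count of these transferases that fell. gst6 (GRMZM2G129357) had 181, 176 and 112 FPKM in spikelets, against 10.1 and 10.8 FPKM in meristem, a log2 difference of 3.75 (adjusted p = 0.000452). GST25 (GRMZM2G161905) had 5.95, 0.211 and 0.425 FPKM in spikelets, against 21.2 and 22.3 FPKM in meristem, a log2 difference of -3.31 (adjusted p = 0.0132). Among phosphate and ion transporters and proton pumps 10 of 27 rose (6 without meristem library 1) and 3 fell (0 without meristem library 1 (limma, 1 at an unadjusted p under 0.05), 1 without spikelet library 2, 5 on the deposited values and 1 with no filter). pht7 (GRMZM2G112377) had 145, 57.6 and 81.9 FPKM in spikelets, against 1.61 and 4.25 FPKM in meristem, a log2 difference of 4.59 (adjusted p = 0.000973). mha4 (GRMZM2G006894), a plasma membrane proton pump, had 32.5, 27.3 and 51.6 FPKM in spikelets, against 5.76 and 4.48 FPKM in meristem, a log2 difference of 2.60 (adjusted p = 0.00157). Another list member, pma1 (GRMZM2G104325), had 36.2, 36.4 and 73.5 FPKM in spikelets, against 2569 and 25.9 FPKM in meristem and did not pass (log2 difference -2.49, adjusted p = 0.275). Its high value stood in meristem library 1 alone. The decreases were ST1, NHX5 and HAK15, with log2 differences of -1.84, -1.29 and -1.27. In nitrogen metabolism gln2 (GRMZM2G024104), a glutamine synthetase, had 94.1, 80.3 and 78 FPKM in spikelets, against 18.2 and 23.3 FPKM in meristem, a log2 difference of 1.97 (adjusted p = 0.00104), while NAR was the list's decrease. The calls of trxh1, GST25, HAK15, ST1 and NHX5 ended with at least 1 of meristem library 1, meristem library 2, spikelet library 1 and spikelet library 2 left out (adjusted p 0.0507 to 0.224). With no filter, HAK15 and NHX5 also lost their calls (adjusted p 0.0551 to 0.0678).

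In the MYB family 10 of 40 genes were higher (6 without meristem library 2) and 8 lower (4 without meristem library 1, 4 without meristem library 2 and 5 without spikelet library 1). MYB112 (GRMZM5G803308) had 77.1, 71.8 and 61.8 FPKM in spikelets, against 9.97 and 5.29 FPKM in meristem, a log2 difference of 3.09 ± 0.28 (SE, adjusted p = 0.000756). MYB59 (GRMZM2G130149) had 8.55, 7.41 and 4.72 FPKM in spikelets, against 52.5 and 54.3 FPKM in meristem, a log2 difference of -2.82 ± 0.27 (SE, adjusted p = 0.000854). Both were well separated between the organs. Of 32 bZIP genes 8 rose (3 without meristem library 1, 2 without meristem library 2 and 3 on the deposited values) and 4 fell. Over all tested genes 16.4% were higher and 19.2% lower, and no trait of either family is read from these counts. bZIP89 (GRMZM2G158313) had 13.6, 21.1 and 19.3 FPKM in spikelets, against 0.386 and 0.0931 FPKM in meristem, a log2 difference of 3.93 (adjusted p = 0.000467). lg2 (GRMZM2G060216), which sets the boundary between blade and sheath of the leaf, had 0.52, 0.453 and 0.578 FPKM in spikelets, against 6.98 and 8.17 FPKM in meristem, a log2 difference of -2.50 (adjusted p = 0.000671). The spikelet libraries of lg2 were all under 1 FPKM.

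**Figure D5:**
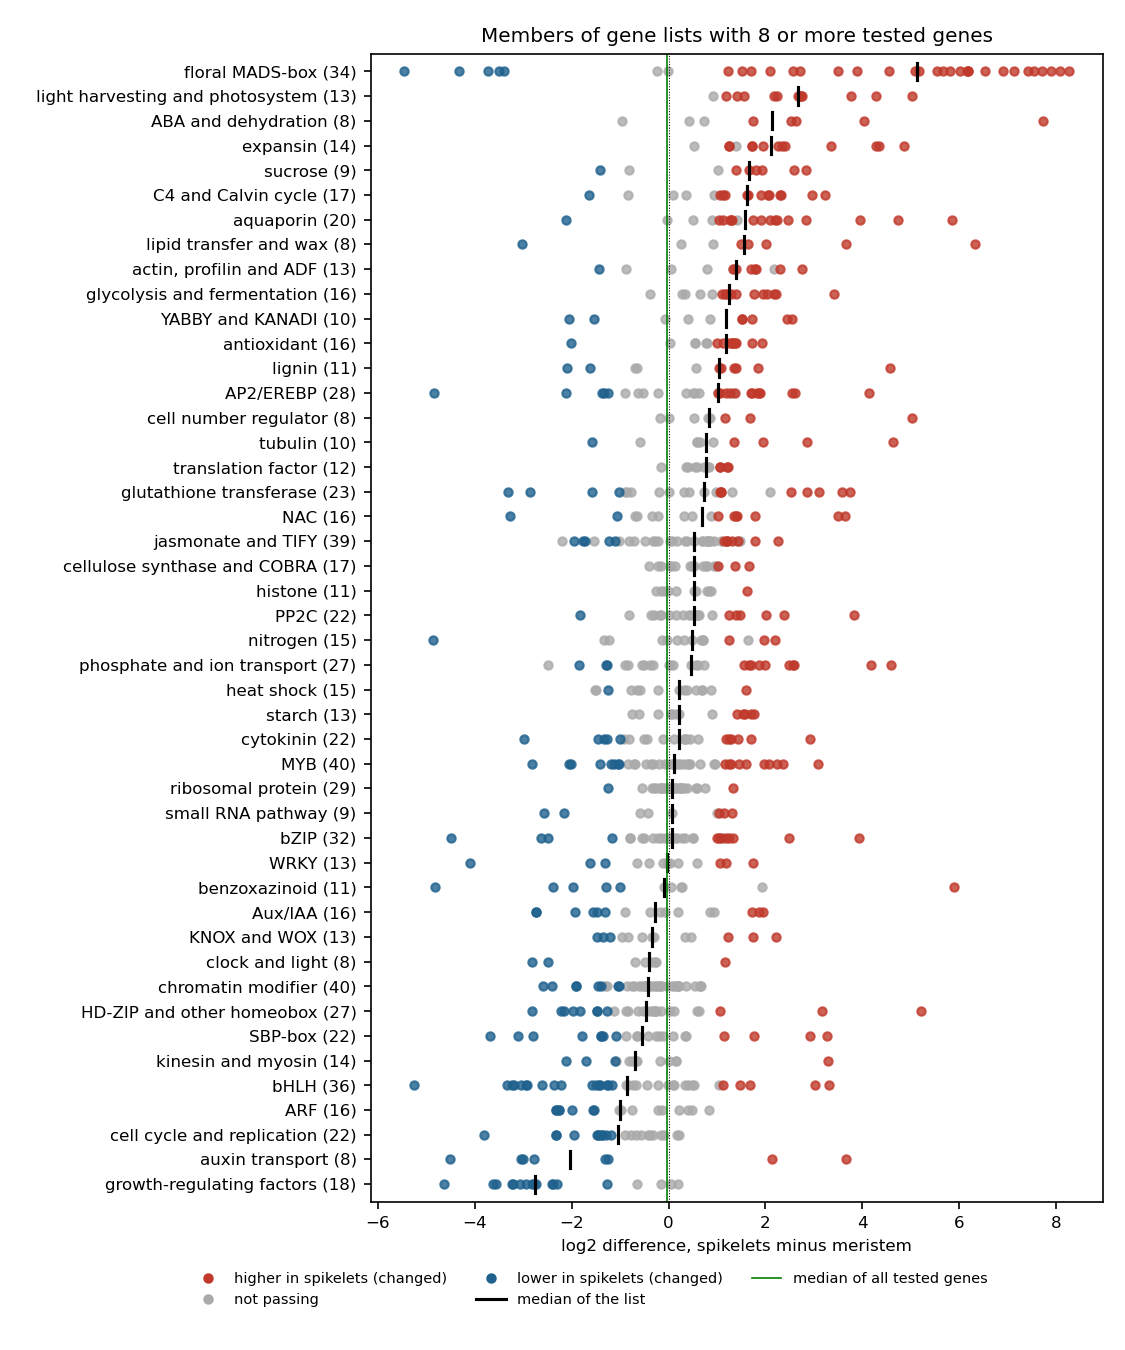
Log2 differences, spikelets minus meristem, of the tested members of each list with at least 8 of them (number in brackets). Red points are changed genes higher in spikelets, blue points changed genes lower in spikelets, grey points did not pass, black bars are list medians, and the green line is the median of all tested genes. The floral MADS-box list stands at the top with a median of 5.13, growth-regulating factors at the bottom with -2.76, and most lists hold points of both colours.

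Some well expressed genes had differences near 0. The translationally controlled tumour protein gene TCTP (GRMZM2G075624) had 399.8, 513 and 317 FPKM in spikelets, against 485 and 331 FPKM in meristem, a log2 difference of 0.00. The ribosomal protein gene RPS27A (GRMZM2G431821) had 456, 588 and 425 FPKM in spikelets, against 478 and 486 FPKM in meristem, a log2 difference of 0.01. The potassium transporter gene HAK8 (GRMZM2G173387) had 51.5, 53.9 and 76.6 FPKM in spikelets, against 63.9 and 55.8 FPKM in meristem. The organs overlapped in all 3. Of 29 tested ribosomal protein genes 27 did not pass, and their median was 0.07 after scaling and -0.32 on the deposited values. Names are those of the reference table, where 256 tested genes share a symbol with another ID, so that closely related copies may share reads. The sources used here do not say whether strand entered the authors' counting, and overlapping or antisense genes cannot be told apart.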

How the data were processed

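Polyadenylated RNA of 3 mature female spikelet and 2 vegetative meristem samples was analysed from 1 table of FPKM values that the authors deposited. Bowtie2 2.1.0, TopHat2 2.0.8b and Cufflinks 2.1.1 are named in the submitters' processing notes, with no role or order. Columns were matched to samples where the initials in the column name matched 1 tissue label, which held for 11 of 68 value columns, and the other 57 were not used. Read depth is not given, so no counting error or floor is stated.

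FPKM were divided by median-of-ratios factors (0.886, 0.867 and 0.962 in spikelets, against 1.16 and 1.21 in meristem). Limma (version 3.58.1, R 4.3.3, trend = TRUE) then compared the organs on log2(FPKM + 1). The test was 2-sided, with 3 residual degrees of freedom and Benjamini-Hochberg adjustment over 28427 genes. On simulated data with 26896 genes, it called 38.8% of genes changed by 1.5 on the log2 scale, 56.7% at 2 and 83.3% at 3, and 2 of 26696 unchanged genes. Only 67, 67 and 66 genes were changed there, with independent noise, against 35.6% of tested genes called in the data. These rates therefore need not hold for the real comparison. Symbols were taken from a RefSeq table, for names only, since its assembly need not be the authors' build: 15685 tested genes matched and 2182 had a symbol.

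Named genes with a symbol were the 10 largest increases and decreases outside the MADS-box family, the 10 most abundant genes of each organ (with or without a symbol), up to 5 genes on in 1 organ, up to 3 changed genes in each direction of each list with further members by value, and up to 5 genes at 50 FPKM or more with the smallest difference. Abundant or organ-restricted genes without a symbol, pma1 and the mez genes were added after their values were seen. The comparison and the 59 gene lists were chosen with earlier results of these data known. Alternatives were the deposited values, upper-quartile scaling, a pseudocount of 0.1, no filter, a 5 FPKM filter, a fit of all 11 matched libraries, a replicate block and leaving out each library. Sequences and coordinates are not used here.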

Additional observations from a re-analysis of the deposited data

How the results depend on the processing

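None of the 10124 changed genes was called in the opposite direction under the alternatives run. The number of changed genes lay between 4624 and 11318 when a library was left out, with 1751 to 5273 higher and 2748 to 6045 lower. The low ends came from leaving out a meristem library, where 44.6% and 45.5% of the calls were shared. Among 257 named changed genes, 20 lost their call on the deposited values, 22 with no filter, 2 with a pseudocount of 0.1, 2 with upper-quartile scaling, 2 with all 11 matched libraries, 7 with the replicate block (GRMZM5G836166 among them), 93 and 96 without a meristem library, and 9 to 17 without a spikelet library. The deviations of same-numbered libraries from their organ means correlated weakly (r = 0.024 and 0.049). The 2 meristem libraries deviate as mirror images, so these values cannot tell whether the numbers pair the samples. With the replicate block 5346 genes rose and 6109 fell. With all 11 matched libraries 5290 rose and 5460 fell. Genes on in 1 organ numbered 171 in spikelets and 240 in meristem on the deposited values, 62 in spikelets and 101 in meristem with an off limit of 0.1 FPKM, 38 and 100 with off as listed at 0, and 102 and 73 with an on limit of 10 FPKM. Leaving out a library gave 224 to 289 in spikelets and 216 to 364 in meristem. The causes of these shifts were not tested, except that fewer libraries make the on and off condition easier to meet. Of the 10 leading genes of an organ, 7 to 10 were shared across settings. Unknown depth limits low genes.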

Other observations

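Genes that matched the reference table made up 62.0% of those higher in spikelets, 41.8% of those lower in spikelets and 57.4% of those that did not pass, against 55.2% of all tested genes.

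Some genes without a symbol were abundant in meristem and uneven among the spikelet libraries. GRMZM5G882806 had 0, 0 and 371 FPKM in spikelets, against 1742 and 2891 FPKM in meristem. GRMZM2G510249 had 106, 1612 and 1647 FPKM in spikelets, against 1678 and 2857 FPKM in meristem. GRMZM2G309058 had 154, 2238 and 1782 FPKM in spikelets, against 1913 and 1839 FPKM in meristem. The last pair was low in spikelet library 1 and near the meristem level in the other spikelet libraries.

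Genes listed at 0 in 1 library but at 10 FPKM or more in the organ's other libraries numbered 23, 15 and 8 in spikelets, against 79 and 91 in meristem. A meristem library has 1 other library that must reach this level and a spikelet library has 2, so the condition is easier to meet in meristem and the counts are not compared.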
